A study of Mus musculus with 2 samples.

Results

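The autosomes of E14 mouse embryonic stem (ES) cells were divided into 2482 consecutive windows of 1 Mb, and the read density of every window was described in 2 sequencing libraries. The windows were taken from chromosomes 1 to 19 of the mm9 assembly whatever they held, out of 2666 windows of these chromosomes, X, Y and the mitochondrial genome. E14 is a feeder-free line of the 129P2/OlaHsd strain, here at passages 25 to 30. Both libraries came from chromatin immunoprecipitation followed by sequencing: one with rabbit serum against the leucine zipper protein LUZP1 (n = 1) and one mock (n = 1), which the sample labels give as made without antibody and the design text as made with GST. No input library was used here, and a GCN5 precipitation that the design also names was not analysed here. A single library per group allows no test, no value below has a replicate check, and every interval is a 95% interval of counting error only.

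Read density over a megabase follows the number of copies of that stretch in the cells, because each copy contributes fragments. It also follows how many of the reads can be placed, since a repeated sequence cannot be assigned to 1 locus, the base composition favoured during library preparation, and how easily the chromatin is recovered. ES cells kept in culture are known to gain or lose chromosomes and chromosome segments. The mm9 assembly represents the C57BL/6J strain, so segments that 129P2/OlaHsd mice carry in other numbers appear as local steps in density.

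The LUZP1 library had 4105379 reads on autosomes, 97.4% of its reads, and the mock had 2648938, 96.9%. A window held 1661 LUZP1 reads and 1071 mock reads on average, and at the median window counting error alone amounted to 2.43% of the LUZP1 value and 3.03% of the mock value. The LUZP1 library depended more strongly on base composition. Relative to the average over placeable sequence, its read rate was 0.245 in 500 bp bins of 26 to 28% GC and 1.49 in those of 60 to 62% GC, whereas the mock rate was 0.763 and 1.23. Plain density means reads per window relative to the autosomal mean. Corrected density means reads divided by the number expected from the GC content and the number of 36-base sequences found at 1 place only (unique positions), scaled so that all autosomal reads give 1. It could be given for 2394 windows. The other 88 had under 10% unique positions. The interquartile range over windows fell from 0.538 to 0.178 with the correction in LUZP1 and from 0.359 to 0.190 in the mock. Stretches were read from a running median of corrected density over 5 neighbouring windows.

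The fullest stretches of 3 of the highest windows are shown first, because their reads pile up in a small part of each window. Each is the stretch of 240 bases with the most read starts in its window, on the plus strand of mm9. Capitals mark bases at which a unique sequence of 36 bases begins on the plus strand, and lower case marks the others. A plus-strand read could be placed from a capital base, whereas a minus-strand read starts at the other end of its 36 bases.

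Chromosome 2 stretch, chr2:98502821-98503060: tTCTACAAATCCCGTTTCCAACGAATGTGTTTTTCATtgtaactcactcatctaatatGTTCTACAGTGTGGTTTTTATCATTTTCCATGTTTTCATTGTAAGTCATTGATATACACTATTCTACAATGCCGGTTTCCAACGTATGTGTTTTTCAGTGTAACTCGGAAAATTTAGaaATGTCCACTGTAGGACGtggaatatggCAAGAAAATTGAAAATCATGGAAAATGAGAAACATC
Chromosome 9 stretch, chr9:3000026-3000265: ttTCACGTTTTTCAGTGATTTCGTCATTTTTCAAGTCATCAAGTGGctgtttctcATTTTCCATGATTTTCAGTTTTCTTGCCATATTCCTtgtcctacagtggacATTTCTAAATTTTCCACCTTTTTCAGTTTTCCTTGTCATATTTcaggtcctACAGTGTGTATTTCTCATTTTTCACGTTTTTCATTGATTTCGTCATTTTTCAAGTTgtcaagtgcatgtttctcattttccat
Chromosome 11 stretch, chr11:3062168-3062407: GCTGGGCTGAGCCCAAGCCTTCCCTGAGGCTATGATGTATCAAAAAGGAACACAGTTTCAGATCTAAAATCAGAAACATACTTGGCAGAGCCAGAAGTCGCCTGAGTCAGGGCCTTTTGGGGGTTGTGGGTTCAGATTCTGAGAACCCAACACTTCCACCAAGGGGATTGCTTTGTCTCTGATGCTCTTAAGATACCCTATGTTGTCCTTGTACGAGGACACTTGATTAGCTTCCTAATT

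The chromosome 2 stretch held 121 LUZP1 and 146 mock read starts, where its window averaged 1.73 and 1.75 per kb. The chromosome 9 stretch held 81 and 86 read starts, against window means of 2.09 and 1.72 per kb. Both consist of 66.2% A and T, with 206 and 179 of their 240 positions unique. The sequence around the chromosome 9 stretch matched itself at 77.5% of bases when shifted by 234 bases. The chromosome 2 stretch and the reverse complement of the chromosome 9 stretch could be aligned over 74 bases, of which 71 matched (96.0% identity). As background, the mouse major satellite, the DNA of pericentromeric heterochromatin, is built of repeats of that unit length. Its sequence was not compared here. The sequence around the chromosome 2 stretch had a best self-match of 34.5% only. In the chromosome 11 stretch 240 of 240 positions were unique, 52.9% of the bases were A or T and the best self-match was 28.2%. It held 24 LUZP1 and 17 mock read starts.

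The first question was whether any whole autosome stood at another level in both libraries. None did by the limits used, a median over windows of at least 1.1 or at most 0.9 in both. Chromosome 11 was highest, with medians of 1.07 in LUZP1 (lower quartile over windows 0.967) and 1.08 in the mock (0.966). Chromosome 18 was lowest, at 0.9001 (quartiles 0.804 and 0.993) and 0.889 (0.778 and 0.975). Its LUZP1 median lay at the limit, and it fell within the limit under several other settings. Chromosomes 12, 15, 16 and 19 had the next lowest mock medians. They stood at 0.920, 0.965, 0.933 and 0.945 in LUZP1 and 0.929, 0.925, 0.934 and 0.896 in the mock, an order that differed between the libraries. The quartile ranges of chromosomes 12 and 18 overlapped those of chromosome 1, whose medians were 1.001 and 1.005 with lower quartiles of 0.919 and 0.935. A chromosome present once in male cells sets the scale: the X chromosome had medians of 0.505 in LUZP1 and 0.533 in the mock, below the lower quartile of every autosome in both libraries. One extra copy of an autosome in all cells would by the same scale give a step as large as the one between X and the autosomes, and no autosome showed one.

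**Figure D1:**
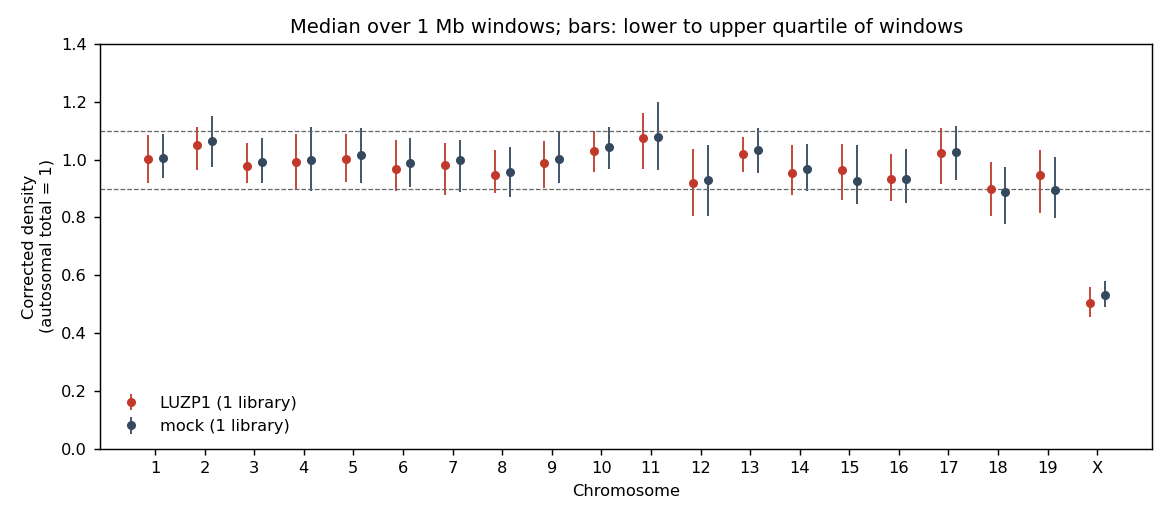
Median corrected density of 1 Mb windows for each chromosome in the LUZP1 and mock libraries (1 library each), with bars from the lower to the upper quartile over windows and dashed lines at 0.9 and 1.1. Autosome medians lie between 0.9001 and 1.074 in LUZP1 and between 0.889 and 1.079 in the mock, while X lies at 0.505 and 0.533.

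Broad low stretches were shared by the libraries. The running median was at most 0.8 in both libraries in 82 of 2394 windows (3.43%), spread over 10 chromosomes. Chromosome 12 held 24 of them, chromosome 18 held 16, chromosomes 15 and 19 held 8 each, and chromosomes 7, 8 and 16 held 6 each. In none of the 82 did the running median reach down to the X chromosome's level in both libraries. Most lay towards the centromeric end, which is the start of every mouse chromosome: 67 of the 82 (81.7%) fell in the first 32 Mb, a region with 22.4% of the windows, and 46 (56.1%) in the first 20 Mb, with 13.2% of the windows. Of windows in the first 32 Mb, 12.5% were shared low windows, and of those further along 0.807%. With the border at 20 Mb these shares were 14.6% and 1.73%. Neighbouring running medians share windows, and the low windows lay on 10 chromosomes only, so these shares do not describe every chromosome start. The 32 Mb border was set after the values had been seen, at the end of a low run on chromosome 12. The low windows formed 14 runs of at least 3 neighbours, which took in 71 windows. The count moved with the correction: 53 Mb were low in both libraries with a GC curve over 1 Mb windows and 203 Mb without a GC term.

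**Figure D2:**
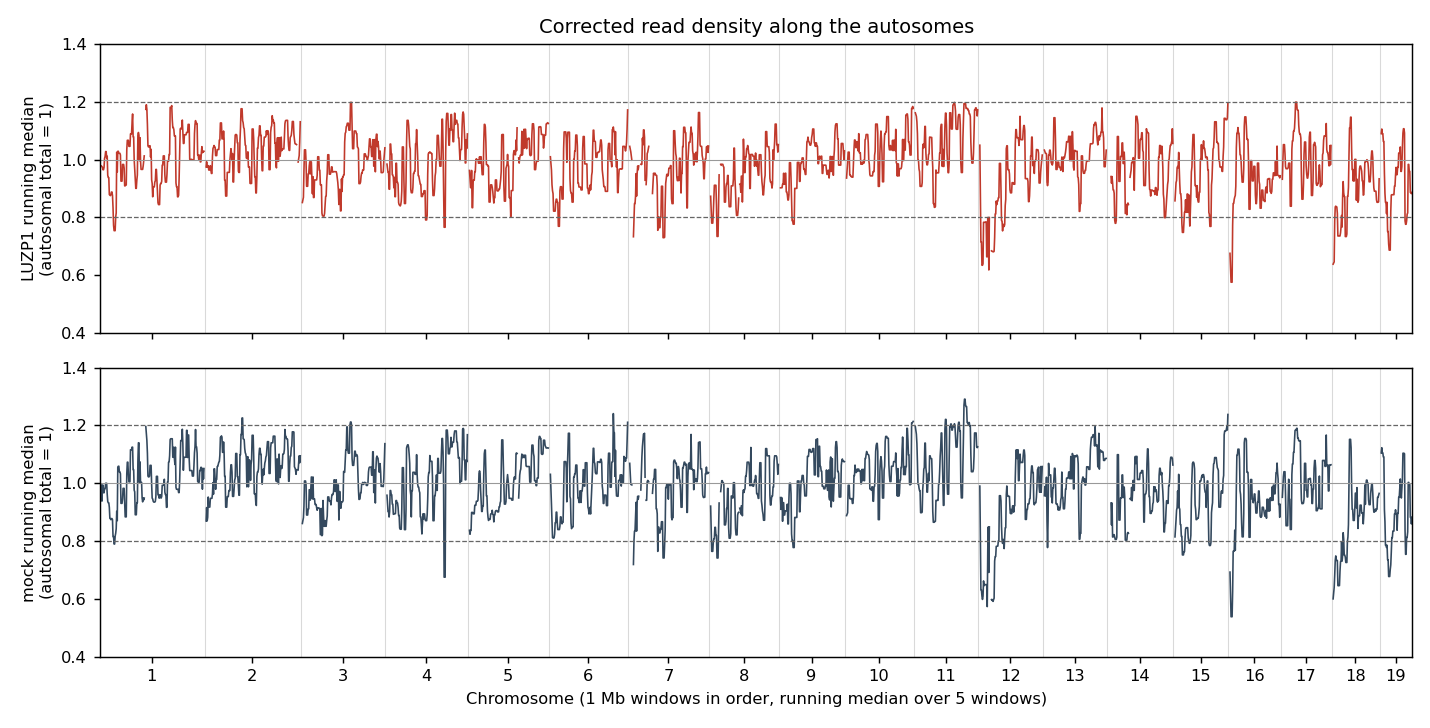
Running median of corrected density over 5 windows along chromosomes 1 to 19, LUZP1 above and mock below, with dashed lines at 0.8 and 1.2; gaps are windows without a corrected density. The low stretches at the starts of chromosomes 12, 16 and 18 appear in both libraries, the deepest at 0.576 in LUZP1 and 0.539 in the mock on chromosome 16.

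The longest low run covered 14 windows at chr12:5000001-19000000. Over its windows the median corrected density was 0.690 in LUZP1 (range 0.437 to 0.926, 16954 reads) and 0.639 in the mock (0.498 to 0.949, 10116 reads). The level within it was uneven. The windows at chr12:6000001-7000000 and chr12:7000001-8000000 stood at 0.560 and 0.627 in LUZP1 and at 0.578 and 0.571 in the mock. The next window, chr12:8000001-9000000, stood at 0.889 and 0.872. The window at chr12:12000001-13000000, which holds Mycn, a growth-promoting transcription factor of the Myc family, stood at 0.926 in LUZP1 and 0.807 in the mock. The run contains 55 protein-coding genes. Those nearest its middle include Smc6, a subunit of a DNA repair complex, and Vsnl1, a neuronal calcium sensor. A second run, chr12:25000001-32000000, began after 2 windows of mostly repeated sequence. Its 7 windows had medians of 0.683 (0.571 to 0.886) and 0.598 (0.551 to 0.880), and near its middle lies Sox11, a transcription factor of neural development. GC content was 41.7% and 43.4% and unique positions 82.4% and 90.7% in these runs, beside medians of 41.8% and 88.7% over windows outside the low stretches.

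The lowest running median in each library lay in the run at chr16:3000001-9000000. The 2 windows at chr16:6000001-7000000 and chr16:7000001-8000000 hold only 1 protein-coding gene, Rbfox1, a large gene for a neuronal splicing regulator. The first stood at 0.474 in LUZP1 (95% interval 0.444 to 0.505, 927 reads) and 0.403 in the mock (0.368 to 0.440, 496 reads). The second stood at 0.530 (0.497 to 0.565, 956 reads) and 0.442 (0.405 to 0.482, 509 reads). Together they gave 0.501 and 0.422, next to X medians of 0.505 and 0.533, and 95.3% and 89.6% of their positions were unique. The preceding window, chr16:5000001-6000000, was also low at 0.576 and 0.539. The gene-rich window before it, chr16:4000001-5000000, stood at 1.02 and 0.928, so that the low level was not continuous from the chromosome start.

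Chromosome 18 had 3 low runs, at chr18:3000001-7000000, chr18:12000001-19000000 and chr18:26000001-30000000. Their window medians were 0.643, 0.736 and 0.734 in LUZP1 and 0.620, 0.696 and 0.726 in the mock. The last of these holds 0 protein-coding genes, and its 4 windows stayed within 0.726 to 0.743 in LUZP1 and 0.646 to 0.745 in the mock. On chromosome 19, chr19:15000001-21000000 had medians of 0.698 in both libraries, around Pcsk5, a proprotein convertase. One window inside that run, chr19:16000001-17000000, stood apart at 0.926 and 0.941. Chromosome 15 had runs at chr15:17000001-21000000 (0.744 and 0.737), a region with 2 protein-coding genes including the cadherin gene Cdh10, and at chr15:69000001-72000000 (0.768 and 0.784), which holds Fam135b and the collagen gene Col22a1.

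The remaining runs covered 3 or 4 windows each. Chromosome 8 had chr8:5000001-8000000 (0.737 in LUZP1, 0.725 in the mock), with Slc10a2, the ileal bile acid transporter, and chr8:15000001-18000000 (0.723 and 0.699), with Csmd1, a very large gene for a membrane protein with complement-control domains. On chromosome 9, chr9:27000001-30000000 (0.773 and 0.721) holds Opcml and Ntm, neighbouring genes for neural adhesion proteins. On chromosome 7, chr7:66000001-70000000 had medians of 0.713 and 0.730. Its lowest window, chr7:67000001-68000000, holds Snrpn, an imprinted gene for a spliceosomal protein, and stood at 0.473 (0.431 to 0.519) and 0.514 (0.464 to 0.568). The run on chromosome 4, chr4:111000001-114000000, holds all 11 annotated Skint genes and is described with the narrow low stretches. In the mock the running median was below that of LUZP1 in 55 of the 82 shared low windows. The same share over all windows was not counted, and a low mock value enters both the low call and this comparison. Nothing particular to the low windows can therefore be read from this count. The median LUZP1 to mock ratio was 1.024 in the shared low windows and 0.993 in the other windows.

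No broad gain was shared. The running median reached 1.2 in both libraries in 0 of 2394 windows (0%), and its highest value was 1.199 in LUZP1 and 1.29 in the mock. This count sits at its threshold: the mock alone reached 1.2 in 32 windows on 6 chromosomes, and moving the window borders by 500 kb gave 17 Mb above it in both libraries. Across the genome the libraries held no stretch of several megabases at a step above the autosomal level comparable in size to the step at X.

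Narrow gains were present. In bins of 50 kb with at least 40% unique positions, corrected density was at least 1.5 in both libraries in 115 of 46660 bins (0.246%). Neighbouring bins of this kind formed 16 stretches of 100 to 500 kb on 9 chromosomes, 2650 kb in all, and the other bins lay outside any stretch. These bins and their limits were chosen after the megabase values had been seen. Pieces of genome with many near-identical copies enter with few placeable reads.

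The longest narrow gain was at chr17:30550001-31050000 and covers Btbd9, Glo1, Dnahc8 and Glp1r. Glo1 encodes glyoxalase 1, which detoxifies methylglyoxal, and Glp1r the receptor of the gut hormone GLP-1. It held 2377 LUZP1 reads where 1074 were expected, a density of 2.21 (95% interval 2.13 to 2.30), and 1390 mock reads where 629 were expected, also 2.21 (2.10 to 2.33). The 250 kb on either side stood at 1.06 and 1.04, so the stretch was 2.09-fold and 2.13-fold above its flanks. Its 10 bins, each at least 1.5 by the choice of stretches, ranged from 1.71 to 2.78 in LUZP1 and from 1.52 to 2.84 in the mock. The edges that best split inside from outside fell at bases 30582001 and 31060000 in LUZP1 and 30576001 and 31064000 in the mock, 6 kb and 4 kb apart, for lengths of 478 kb and 488 kb. The fullest 10 kb took 3.03% and 3.09% of the reads, so no single pile-up carried the level, and 92.5% of positions were unique. The megabase window around it, chr17:30000001-31000000, stood at 1.59 in both libraries.

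A second long gain lay at chr16:20100001-20550000, with 10 protein-coding genes from Klhl24 to Abcf3. Among them are Yeats2, which encodes a subunit of the ATAC histone acetyltransferase complex, Eif2b5, a subunit of a translation initiation factor, Dvl3, a Wnt signalling protein, and Ap2m1, an endocytosis adaptor. The stretch held 1648 LUZP1 reads (density 1.83, 1.74 to 1.92) and 926 mock reads (1.69, 1.59 to 1.81). Its bins, again at least 1.5 by choice, ranged from 1.59 to 2.15 and from 1.53 to 1.83. Edges were at 19993001 and 20587000 in LUZP1 and at 19981001 and 20566000 in the mock, 12 kb and 21 kb apart. The raised level therefore extended past the called stretch, and its 250 kb flanks at 1.286 and 1.403 included part of it.

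The smaller gains included gene families that occur in tandem copies. At chr1:90100001-90200000, the Ugt1a cluster (glucuronosyltransferases, which conjugate bilirubin and drugs) and Hjurp, the loading chaperone of the centromeric histone CENP-A, stood at 1.97 (1.80 to 2.16) and 2.02 (1.79 to 2.28). At chr1:173400001-173500000, Itln1, a lectin gene, and Cd244, a receptor of natural killer cells, stood at 2.71 (2.47 to 2.97) and 2.84 (2.53 to 3.17). In both cases the flanks were near the autosomal level, between 0.999 and 1.21. The chitinase-like genes Chi3l3 and Chi3l4 at chr3:105950001-106100000 stood at 1.92 and 2.08. H60b and Raet1d, which encode ligands of the NKG2D receptor, at chr10:22000001-22100000 stood at 2.16 and 1.98. Tdpoz3 and Tdpoz4 at chr3:93550001-93650000 stood at 2.198 (1.909 to 2.519) and 2.512 (2.128 to 2.944). Naip6, of the inflammasome sensor family, at chr13:101050001-101150000 stood at 2.08 (1.80 to 2.39) and 2.29 (1.93 to 2.71). Unique positions made up only 59.8%, 47.2% and 46.4% of the H60b, Tdpoz and Naip6 stretches. A limit of 60% unique positions left 9 narrow gains. A segment of the immunoglobulin heavy chain locus, chr12:116800001-116900000, stood at 2.27 and 2.36, and the vomeronasal receptor genes Vmn2r111 and Vmn2r112 at chr17:22650001-22800000 stood at 1.83 and 1.71. Of the 16 stretches, 13 overlap a protein-coding gene. The share among other stretches of like length was not counted, so no excess of genes can be read from this.

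Narrow low stretches were shared as well. Corrected density was at most 0.4 in both libraries in 91 of 46660 bins (0.195%). Neighbouring bins formed 14 stretches of 100 to 650 kb on 6 chromosomes, 2900 kb in all, and the other bins lay outside any stretch. Of the 14 stretches, 6 overlap a protein-coding gene, again without a share for other stretches of like length. The stretch nearest to empty was chr4:111750001-112250000, with Skint3, Skint4 and Skint9. Skint genes encode immunoglobulin-like membrane proteins of skin and thymus, and the founding member selects epidermal T cells. It held 5 LUZP1 reads where 591 were expected (density 0.00847, 95% interval 0.00275 to 0.0198) and 1 mock read where 449 were expected (0.00223, 5.64e-05 to 0.0124), although 75.3% of its positions were unique. Its flanks stood at 0.732 and 0.762, and its edges lay 7 kb and 13 kb apart between the libraries. A second stretch at chr4:112450001-113100000, within which lies Skint6, was reduced but not empty, at 0.156 (0.129 to 0.188) and 0.207 (0.172 to 0.249). Together they made chr4:112000001-113000000 the lowest window of the autosomes with at least 50% unique positions, at 0.235 (0.208 to 0.265) and 0.270 (0.237 to 0.306). The window after it, chr4:113000001-114000000, stood at 0.453 and 0.587.

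**Figure D3:**
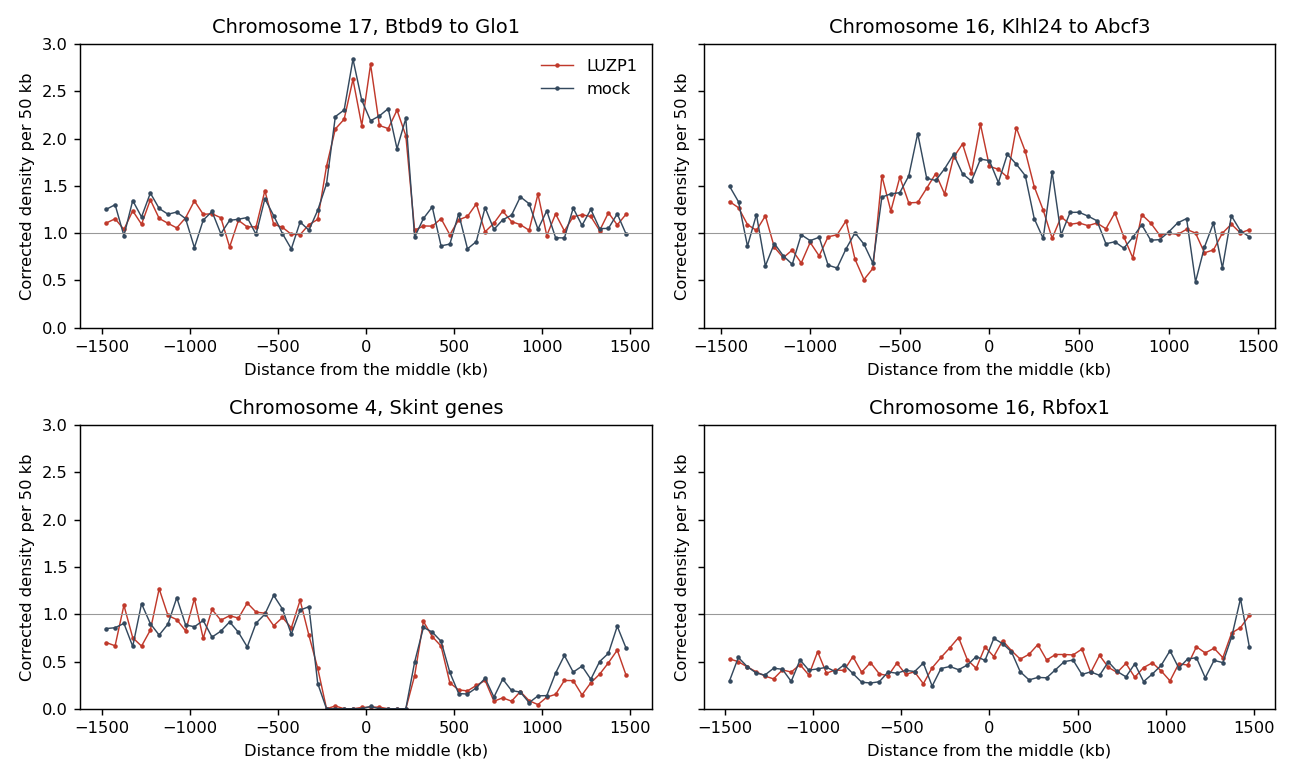
Corrected density of 50 kb bins against distance from the middle of 4 regions in the LUZP1 and mock libraries; bins with under 40% unique positions are left out. The stretch from Btbd9 to Glo1 stands at 2.21 in both libraries with steep sides, the one from Klhl24 to Abcf3 at 1.83 and 1.69, the Skint stretch near 0, and the Rbfox1 windows at 0.501 and 0.422, rising towards 1 only at the right end of the part shown.

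The other narrow low stretches included immune and sensory gene clusters. Nlrp1b, a sensor of the inflammasome, at chr11:71000001-71100000 had 7 LUZP1 reads of 154 expected (0.0453, 0.0182 to 0.0934) and 9 mock reads of 94.6 expected (0.0951, 0.0435 to 0.181). Its flanks stood at 0.886 and 0.940. At chr17:40050001-40300000, without a protein-coding gene, 1 LUZP1 read was found of 224 expected and 10 mock reads of 177 expected. Trim5, Trim12a, Trim12c, Trim34a and Trim34b, of the family of retroviral restriction factors, at chr7:111400001-111500000 stood at 0.222 (0.141 to 0.334) and 0.180 (0.0932 to 0.315). Mrgpra2b and Mrgpra3, receptors of itch-sensing neurons, at chr7:54750001-54950000 stood at 0.143 (0.0968 to 0.202) and 0.179 (0.117 to 0.263). Mtrr, methionine synthase reductase, at chr13:68600001-68700000 stood at 0.296 and 0.376, with 46.9% unique positions. In the Snrpn window, chr7:67350001-67500000 stood at 0.124 and 0.125 and chr7:67650001-67900000 at 0.0881 and 0.112. Neither stretch overlaps Snrpn or another protein-coding gene, and 57.9% and 59.2% of their positions were unique. At chr13:61750001-61850000 the libraries held 0 and 11 reads of 92.4 and 61.8 expected, and the interval for LUZP1 reached up to 0.0399. The 2 low stretches on chromosome 16, at chr16:5650001-5750000 (0.369 and 0.368) and chr16:6350001-6450000 (0.360 and 0.339), lay inside the broad low stretch around Rbfox1, with flanks between 0.369 and 0.451.

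Single windows at or above 2 numbered 3 of 2394 (0.125%) and fell to 1 when windows with under 70% unique positions were left out. On chromosome 4, chr4:145000001-146000000 stood at 3.17 (2.98 to 3.37) and 4.12 (3.86 to 4.39), and chr4:146000001-147000000 at 3.42 (3.24 to 3.62) and 4.26 (4.01 to 4.52). Only 18.2% and 21.1% of their positions are unique, and their plain densities were 0.630 and 0.777 in LUZP1 and 0.873 and 1.04 in the mock, so these windows are high only against the reads their placeable sequence should give. The genes there are mostly predicted ones without an established name. The third, chr11:3000001-4000000, had 5402 and 3174 reads, the most of any window in each library, and a density of 2.49 (2.42 to 2.55) and 2.53 (2.45 to 2.62). Its excess came from chr11:3000001-3100000, with Sfi1, which encodes a centriole protein, and Drg1, which encodes a GTP-binding protein. That stretch stood at 17.2 (16.6 to 17.8) and 16.9 (16.2 to 17.7), with 3104 and 1804 reads, and contains the chromosome 11 stretch printed above.

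The windows of the 2 other printed stretches were next. The window chr9:3000001-4000000 stood at 1.79 (1.71 to 1.86) and 2.06 (1.959 to 2.155), with 16.68% and 20.01% of its reads in its fullest 10 kb. The window chr2:98000001-99000000 stood at 1.575 (1.501 to 1.651) and 1.907 (1.819 to 1.998), with 43.1% and 47.0% of its reads in its fullest 10 kb. Without those 10 kb the chromosome 2 window stood at 0.901 and 1.02, whereas the chromosome 9 window stayed at 1.49 and 1.65. The window of Yeats2, chr16:20000001-21000000, stood at 1.495 and 1.450 and kept 1.48 and 1.43 without its fullest 10 kb.

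Near-empty windows, under 0.05 of the autosomal mean in both libraries by plain density, numbered 76 of 2482 (3.06%). The first 3 Mb of each of the 19 autosomes made up 57 of them, all unknown bases in the assembly, where the centromere and its satellite repeats are not assembled. A further 8 were gaps of 100% unknown bases inside chromosomes, at chr1:86000001-87000000, at the 6 windows from base 40000001 to base 46000000 of chromosome 7, and at chr8:21000001-22000000. These 65 windows had 0 reads in both libraries. The other 11 hold sequence, with 0% to 15% unknown bases and 159 protein-coding genes, but only 0.371% to 8.61% unique positions. They received 175 LUZP1 and 151 mock reads in all. The 3 windows from base 21000001 to base 24000000 of chromosome 7 hold 24, 17 and 13 Vmn1r genes or pseudogenes, for pheromone receptors of the vomeronasal organ, and received 5 to 10 LUZP1 and 7 to 9 mock reads each. All 76 near-empty windows had under 10% unique positions, and in the 65 of unknown bases no read could be placed at all. Whether the 11 with sequence received the reads that their few unique positions would give was not counted. Most positions of the Skint and Nlrp1b stretches could be placed. Those stretches are shorter than a window and were chosen by corrected density in 50 kb bins.

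Genes that matter to ES cells were looked up whatever their value. All 16 pluripotency genes matched and 0 lay in a shared low stretch. No window of the autosomes was in a shared high stretch. Their windows had medians of 1.07 in LUZP1 and 1.09 in the mock, beside 0.990 and 0.994 over all windows. The windows of the growth-control genes had similar medians, 1.088 and 1.081, so this level was not particular to pluripotency genes. The window of Pou5f1, the transcription factor Oct4, stood at 1.24 and 1.18. Nanog and Dppa3 share a window, at 1.23 and 1.24. Sox2 stood at 1.052 and 1.060, and the lowest LUZP1 value among the 16 was 0.909 at Zfp42, also called Rex1, with 1.01 in the mock. Of 16 growth-control genes, 1 lay in a shared low stretch, Mycn, with a running median of 0.783 in LUZP1 and 0.650 in the mock. Over all windows 3.43% were in such stretches. The window of Mycn itself stood at 0.926 and 0.807, above the 0.8 limit, so its low call came from neighbouring windows. Myc stood at 1.03 and 0.981, Trp53, the gene of the tumour suppressor p53, at 1.19 and 1.23, and Cdkn2a, the p16 and p19Arf locus, at 1.045 and 1.076. Smad4, a mediator of TGF-beta signals, was the lowest of these genes in LUZP1, at 0.923 and 0.926.

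Density rose with gene content in both libraries after the correction. Windows were ordered by their number of protein-coding genes and split into 5 groups of nearly equal size. In the group with the fewest genes (0 to 1) median corrected density was 0.876 in LUZP1 (quartiles 0.810 and 0.931) and 0.896 in the mock (0.826 and 0.952). In the group with the most (14 to 79) it was 1.101 (1.026 and 1.159) and 1.119 (1.041 and 1.182). The quartile ranges of these groups did not overlap. Shared low windows made up 6.05% of the former group and 0.209% of the latter, that is 29 and 1 windows. Over 5 such groups by GC content the medians rose from 0.870 to 1.09 in LUZP1 and from 0.904 to 1.097 in the mock. By share of unique positions the lowest and highest groups had medians of 0.938 and 1.054 in LUZP1. In the mock they had 0.9485 and 1.063. The median of the group with the fewest genes lay above the 0.8 limit of a shared low stretch. Shared low windows held a median of 2 protein-coding genes, and 18 of 82 held 0. The other windows held a median of 6, and 221 of 2312 held 0. Fewer DNA copies, less recovered chromatin, and base composition or placement left after the correction cannot be told apart for such stretches with these libraries.

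**Figure D4:**
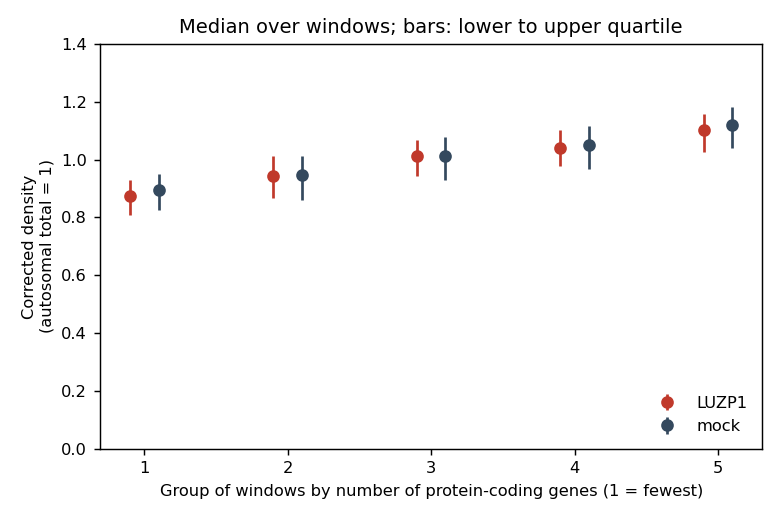
Median corrected density of windows in 5 groups by number of protein-coding genes, in the LUZP1 and mock libraries, with bars from the lower to the upper quartile over windows. Medians rise from 0.876 and 0.896 in the group with the fewest genes to 1.101 and 1.119 in the group with the most.

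Most families of tandem genes stood near the autosomal level. The 83 windows with odorant receptor genes (Olfr) had medians of 0.998 and 1.04, and the 33 windows with Vmn2r genes and a corrected density had 0.998 and 1.02. The Skint family stood apart, with medians of 0.453 and 0.587 and 3 of 3 windows in a shared low stretch.

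Differences between the libraries were small beside what they shared. Over the 2394 windows corrected densities correlated with Pearson's r of 0.932 and Spearman's rho of 0.906, given as a description since windows share libraries, depth and base composition. The LUZP1 to mock ratio, as a running median, passed 1.2 or 0.8 in 0 windows (0%) and ranged from 0.842 to 1.18. Without the correction 9 windows were at or above 1.2 and 144 at or below 0.8. Among chromosomes the ratio was highest at 1.032 on both chromosome 18 (1.023 to 1.041) and chromosome 19 (1.021 to 1.042), followed by 1.020 on chromosome 15 (1.013 to 1.028) and 1.019 on chromosome 12 (1.011 to 1.026). It was lowest among autosomes at 0.9865 on chromosome 2 (0.9812 to 0.9919), and X stood at 0.955 (0.946 to 0.964). Of windows on chromosome 19, 69.5% had a ratio above 1, and of those on chromosome 2, 35.6%. These intervals leave out variation between preparations, which 1 library per group does not measure.

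The 5 highest running median ratios fell in shared low stretches on chromosomes 16 and 12, at chr16:7000001-8000000 and chr16:8000001-9000000 (both 1.18) and at chr12:13000001-14000000 (1.16), chr12:11000001-12000000 and chr12:12000001-13000000 (both 1.15). Neighbouring running medians share windows, so these are 2 places. Of the 50 highest, 16 were in shared low stretches, and of the 50 lowest, 3 were. Over all windows 3.43% were in such stretches. A low mock value raises the ratio and also enters the low call, so the 2 are not independent. The Rbfox1 window chr16:7000001-8000000 had a ratio of its own of 1.199 (1.075 to 1.337), and the next window, chr16:8000001-9000000, one of 1.015 (0.938 to 1.099). The low end was at chr1:111000001-112000000 (0.842), with the cadherin gene Cdh7, at chr2:88000001-89000000 and chr2:85000001-86000000 (0.856 and 0.863), with 53 and 51 genes or pseudogenes of the Olfr family, and at chr13:64000001-65000000 and chr13:66000001-67000000 (both 0.881). The ratios of the Olfr windows themselves were 0.995 and 1.011, both with intervals that include 1, so their low running medians came from neighbouring windows.

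**Figure D5:**
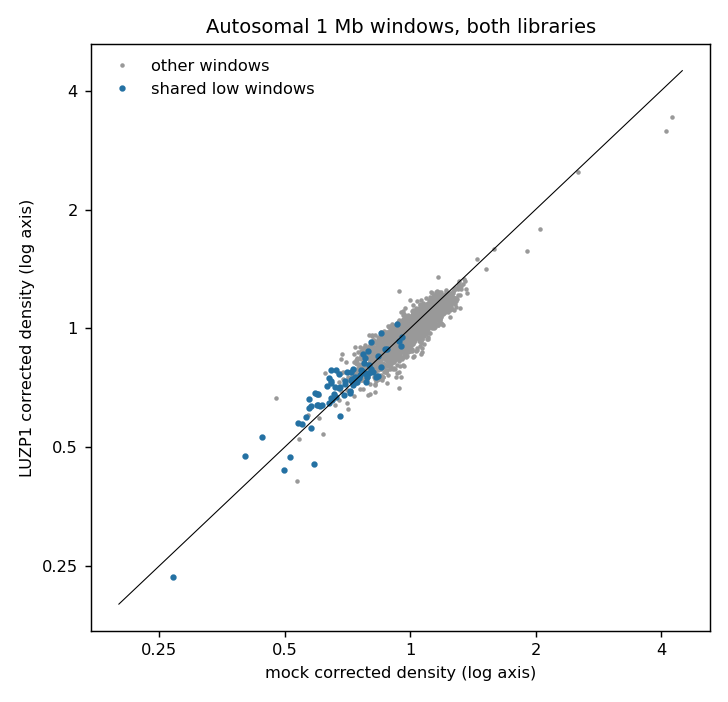
Corrected density of each autosomal 1 Mb window in the mock (horizontal, log axis) and LUZP1 (vertical, log axis) libraries, with the line of equal values; blue points are the 82 shared low windows. The points follow the line, most low windows lie above it, and the 2 highest points, on chromosome 4, lie below it at 3.17 and 3.42 in LUZP1 against 4.12 and 4.26 in the mock.

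Single windows passed the limits more often: the ratio was at least 1.2 in 8 windows (0.334%) and at most 0.8 in 5 (0.209%). The highest was 1.395 (1.027 to 1.907) at chr5:11000001-12000000, with 123 LUZP1 reads, 67 mock reads and 11.8% unique positions. The next, 1.32 at chr17:39000001-40000000, rested on its fullest 10 kb, which held 42.9% of the LUZP1 and 13.5% of the mock reads. Without the fullest 10 kb of each library this window stood at 0.723 in LUZP1 and 0.827 in the mock, so that LUZP1 was the lower of the libraries. The Mup cluster of major urinary protein genes at chr4:60000001-61000000 stood at 1.25, on 171 LUZP1 reads. Its interval, 0.9635 to 1.636, includes 1, and only 10.1% of its positions are unique. Grin2a, an NMDA receptor subunit, at chr16:9000001-10000000 stood at 1.24 (1.13 to 1.35), next to the Rbfox1 stretch. The lowest was 0.752 (0.672 to 0.841) at chr6:130000001-131000000, the Klra cluster of natural killer cell receptors. Next was 0.769 (0.629 to 0.940) at chr12:19000001-20000000. The first window of chromosome 4 with density above 2, chr4:145000001-146000000, and the second Skint window, chr4:113000001-114000000, were also among them, at 0.770 and 0.772.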

How the data were processed

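The authors deposited mapped reads of 36 bp, 1 line each with a read count of 1, aligned to mm9 with Eland and 1 mismatch allowed, per the labels' design text. Tool versions: not given in the sources used here. No position and strand held more than 1 read, which limits how high a pile-up can rise. The deposited LUZP1 peak list was not used.

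Read 5′ ends were counted in 1 Mb windows and scaled to the autosomal reads of each library (Python 3.11.15, numpy 2.4.6, pandas 2.3.3, scipy 1.17.1). Expected reads came from unique 36-base sequences (exact matches, both strands of NCBIM37, the assembly also called mm9) and the read rate of 500 bp bins by GC content in steps of 2%, for steps with at least 2000 reads. Genes came from GENCODE mouse release 1 of that assembly. Intervals are exact Poisson for a density and exact conditional binomial (Clopper-Pearson) for a ratio, and reads may share fragments. Simulated reads with planted steps were used to test the code.

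The windows, gene lists and limits were chosen with earlier results of these data known. Named windows are the 5 highest and 5 lowest with at least 50% unique positions, all runs of 3 or more shared low windows (the rule took the 10 longest, and the other 4 were added), the 5 highest and 5 lowest ratios, and the highest and lowest chromosome. Genes named are fixed family and list members and those nearest the middle of a run. Narrow stretches, single windows past a ratio limit, Rbfox1, Snrpn and other genes at named places were chosen after their values were seen.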

Additional observations from a re-analysis of the deposited data

How the results depend on the processing

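No paired analysis was possible because each group is 1 library. Of 99 recomputed values, 54 stayed close to the reported one. Counts of shared high and low windows and of windows past a ratio limit are in Mb. With plain density the shared gains were 523, shared losses 212, single high windows 1, library differences 153, autosomes past the limits 3 and the X level (mean of both libraries, 0.519 as reported) 0.428. With unique positions alone, without GC content, gains were 201, losses 203, library differences 153, autosomes 2 and X 0.469. A GC curve over 1 Mb windows gave 53 losses and X at 0.556. Setting the window median to 1 gave 11 gains and X at 0.523. Windows of 500 kb gave 9.5 gains, 1.5 library differences and 1 autosome. Windows of 2 Mb gave 24 gains, 1 autosome and X at 0.525. Windows moved by 500 kb gave 17 gains, 1 library difference and 1 autosome. A running median over 3 windows gave 12 gains. Thresholds of 1.1 and 0.9 gave 242 gains, 344 losses and 46 library differences, and 1.3 and 0.7 gave 22 losses. Chromosome limits closer to 1 gave 5 autosomes, and a limit of 1.5 gave 6 single high windows. Plus-strand reads gave 5 gains and 1 autosome, minus-strand reads 2 gains, 1 autosome and X at 0.523. Leaving out pile-up bins of 10 kb gave 4 gains. Leaving out windows with under 70% unique positions gave 3 gains, 1 single high window and 1 autosome. Near-empty windows ranged from 58 to 84.5.

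The number of shared gains therefore depends on the setting. Losses stayed within 1.5 times of 82 in 10 of 15 alternatives. They moved to 53, 203 and 212 in the alternatives that changed or dropped the GC correction, and to 22 and 344 with other thresholds. In alternatives chosen after seeing the data, narrow high stretches, 16 as reported, numbered 6 with at least 3 bins, 9 with at least 60% unique positions and 53 without GC content, and narrow low stretches, 14 as reported, 7 and 8 with the first 2 of these. The causes of these moves were not tested. Depth limits single windows with few reads, below all those with under 50% unique positions.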
